A study of Mus musculus with 4 samples.

Results

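Axon guidance ligands and receptors were examined as 69 genes, read by 152 probe sets, out of 18194 genes on a mouse expression array of 45101 probe sets. They were taken by symbol, as all semaphorins of classes 3 to 7, plexins, neuropilins, ephrins, Eph receptors, Slits, Robos, netrins, Unc5 receptors and Dcc that had a probe set with a single gene symbol, and each gene was represented by its probe set with the highest mean. The pattern also takes in Plxna4os1, a non-coding antisense transcript at the Plxna4 locus that is neither ligand nor receptor. Ephb2 had no such probe set and was not analysed here. The tissue was the left hippocampus, taken whole, of 4 wild-type mice, numbered 11, 13, 15 and 17 in the labels and described there as biological replicates. All samples belong to this single untreated group, and the sources used here do not give strain, sex or age. Values are log2 intensities made by the authors with RMA, and having only 4 arrays limits their precision. Whole hippocampus mixes all cell types, so fewer cells of a type and less RNA per cell cannot be told apart.

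Axon guidance cues are proteins that attract or repel the growing tip of an axon. Secreted class 3 semaphorins mostly act through neuropilins, which bind them, and plexins, which carry the signal, while membrane semaphorins bind plexins directly. Ephrins are bound to the cell surface and signal through Eph receptor tyrosine kinases, with signals running into both cells. Slits repel through Robo receptors, and netrins attract through Dcc and repel through Unc5 receptors. In the hippocampus these systems guide mossy fibres and commissural axons during development, and several of them act at adult synapses, where they regulate dendritic spines and plasticity.

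Slit2 and Slit3 carry a further product inside their genes, shown here because it links the ligand and receptor arms of a system whose levels are given further on. By the RefSeq table of build GRCm38.p6, Mir218-1 lies within the span of Slit2 and Mir218-2 within that of Slit3. Both yield the same major product, miR-218-5p, known to act on Robo1 and Robo2 transcripts in mouse and human cells. Its copies lie at chr5:48223966-48223986 and chr11:35616840-35616860, both on the plus strand, and the minor products at chr5:48224005-48224026 and chr11:35616882-35616903. The mature sequences, from RefSeq, have the seed (bases 2 to 8) in capitals. The 2 minor products differ in their seeds. No level of a mature miRNA is given here.
miR-218-5p: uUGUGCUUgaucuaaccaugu
miR-218-1-3p: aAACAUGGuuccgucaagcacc
miR-218-2-3p: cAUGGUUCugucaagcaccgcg

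Background was set by genes of testis, liver, skin, muscle and other tissues that are not expected in hippocampus. Over the mean levels of 49 such genes the 95th percentile, used as the limit, was 6.84 and their median was 3.55. By this limit 34 of the 69 guidance genes, or 49.3%, had a mean above background, against 39.0% of all genes of the array. Each gene was read by its highest probe set, so genes with several had more chances to pass. Of the 69 members 45 had 2 or more probe sets, as did 9012 of the 18194 genes of the array. Among genes with several, no probe set was above the limit in 46.7% of members and 46.1% of all genes. With limma's moderated test of each mean against the limit, 32 of 69 guidance genes (46.4%) were called above it, against 37.2% of all genes, and 33 (47.8%) were called under it, against 58.9% of all genes. Epha6, Sema6c, Ephb3 and Sema4a could not be told apart from the limit. The limit decides much of this count. With the 99th percentile (7.65) 21 members lay above it, where 27.3% of all genes did, with the 90th percentile (6.18) 45 did against 47.7% of all genes, and with a limit from 39 olfactory receptor genes (4.70) 61 did against 64.7%. Under each of 13 alternative settings, 15 members stayed above the limit in use: Sema3e, Sema4f, Nrp1, Nrp2, Plxna2, Plxna4, Plxnb1, Efna3, Efnb3, Epha4, Epha5, Epha7, Ephb6, Slit1 and Unc5a. In the same settings 8 stayed under it: Sema3d, Plxna4os1, Efna4, Epha1, Epha2, Epha8, Robo2 and Ntn3. Of these settings, median centring and an adjusted p of 0.01 changed neither the members' means nor the limit, so they could move no gene. A probe set's signal depends on its affinity, so no order between different genes is drawn from their levels, and a level under the limit does not show that a transcript was absent.

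Most lists of hippocampal cell markers lay mainly above the limit, where 39.0% of all genes did. The lists of CA3, oligodendrocyte precursors, endothelial cells (3 of 6) and choroid plexus (1 of 5) did not. All 8 neuronal, all 5 measured CA1, 3 of 4 CA2 and 5 of 6 dentate granule cell markers were above it. The dentate marker under it was Prox1 (5.76). CA3 markers were at 2 of 5 (40%), near the share of all genes. Glial markers were at 6 of 6 for astrocytes, 8 of 9 for myelin, 5 of 7 for microglia and 2 of 4 for oligodendrocyte precursors. Markers of regions near the hippocampus were at 3 of 5 for neocortex and subiculum (Cux2, Lamp5 and Fezf2), 1 of 4 for thalamus and 2 of 4 for striatum. The arrays were not alike in RNA quality. The 3' minus 5' difference of the Gapdh control was 0.62, 0.62, 2.64 and 3.79 in samples 11, 13, 15 and 17, and that of the beta-actin control 1.10, 1.25, 1.93 and 2.33. Without samples 15 and 17 the limit was set again from the remaining arrays and fell to 6.68. Against that limit 33 members were called above and 27 under, and 36 had a mean above it. The shares over all genes at that limit are not given here, so these counts describe the members alone. The deposited values also repeat: the 180404 numbers take 97440 distinct values, and the most frequent of them occurs 1600 times. An SD near 0 is therefore in part a matter of equal numbers, as for Sema6a, listed at 5.26 in all 4 samples.

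**Figure D1:**
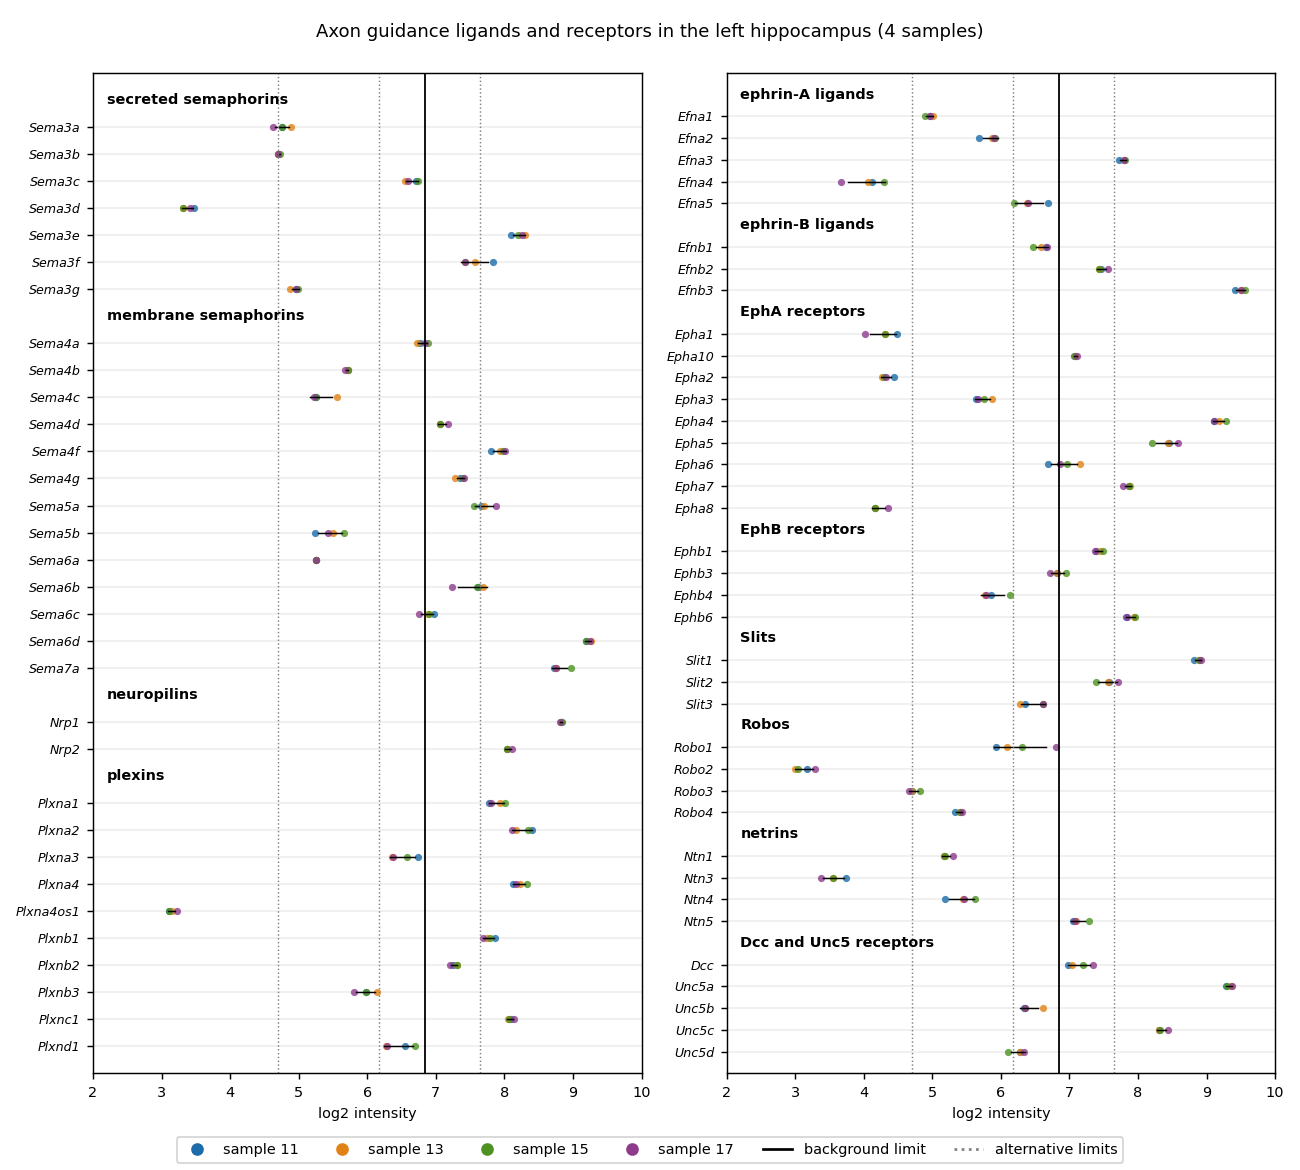
Log2 intensity of the 69 guidance genes (x axis), grouped by role down the page, with 1 point for each of samples 11, 13, 15 and 17 and a black line for the mean ± SD. The solid vertical line is the background limit of 6.84 and the dotted lines are the alternative limits of 4.70, 6.18 and 7.65; the points of a gene lie close together, and those of Robo1 are spread the widest.

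Of the secreted semaphorins, 2 of 7 had a mean above the limit. Sema3e, which in mouse signals through plexin-D1 without needing a neuropilin, had levels of 8.09, 8.30, 8.20 and 8.26 in samples 11, 13, 15 and 17, or 8.21 ± 0.088 (SD, n = 4). Sema3f, which through neuropilin-2 prunes mossy fibre branches and limits spines, stood at 7.84, 7.57, 7.42 and 7.43 in the same samples, or 7.56 ± 0.20. Sema3f was highest in sample 11 and lowest in samples 15 and 17, a 1.34-fold span. Sema3f rests on a single probe set of 3, the other two lying at 4.62 and 3.56, and the one above carries the array's mark for probes that may match other sequences. With the median over probe sets, or with unmarked probe sets alone, Sema3f was under the limit.

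Sema3a, a repellent of axons and a component of perineuronal nets, was under the limit in every sample, at 4.75, 4.89, 4.75 and 4.63. Sema3c lay just under it at 6.72, 6.56, 6.74 and 6.60. Its mean was 6.65 ± 0.090. Sema3g (4.95 ± 0.050), Sema3b (4.71 ± 0.013) and Sema3d (3.38 ± 0.080) were well under. Sema3d and Sema3a, neighbours in the genome by the RefSeq table, were thus both under the limit.

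Membrane semaphorins were above the limit in 8 of 13 cases. Sema6d, a transmembrane ligand of plexin-A1, had levels of 9.18, 9.27, 9.19 and 9.25 in samples 11, 13, 15 and 17, or 9.22 ± 0.043. Sema7a, which is anchored to the membrane by a lipid and binds plexin-C1 and integrins, stood at 8.73, 8.76, 8.97 and 8.76. By its main probe set it was high in sample 15 and nearly level in the others. Sema5a, which in mouse limits synapses on dentate granule cells through plexin-A2, had 7.67, 7.70, 7.56 and 7.88, or 7.70 ± 0.13. By its main probe set it was highest in sample 17.

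Class 4 members above the limit were Sema4f, Sema4g and Sema4d. Sema4f, known from synaptic membranes in rat, had 7.80, 7.93, 7.97 and 8.003 in samples 11, 13, 15 and 17, lowest in sample 11. Sema4d, a ligand of plexin-B1 that oligodendrocytes also make, stood at 7.06, 7.07, 7.07 and 7.18. Sema4g had a level of 7.36 ± 0.057. Sema4a could not be told apart from the limit, with 6.77, 6.73, 6.89 and 6.84, and Sema4b (5.70 ± 0.017) and Sema4c (5.32 ± 0.16) were under it.

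Among class 6 members, Sema6b had the largest SD of any guidance gene above the limit. It stood at 7.61, 7.69, 7.61 and 7.23 in samples 11, 13, 15 and 17, or 7.53 ± 0.21. The low value was in sample 17 alone, 1.37-fold under the highest. Sema6c straddled the limit, with 6.97, 6.88, 6.89 and 6.76, and its adjusted p against the limit by limma was 0.520. Sema6a, whose interplay with plexin-A2 and plexin-A4 places mossy fibres in CA3 of the mouse, was under the limit by all 3 of its probe sets. Sema5b was under it too, at 5.46 ± 0.18.

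Both neuropilins were above the limit. Nrp1, the binding receptor for Sema3a, had levels of 8.84, 8.82, 8.83 and 8.81 in samples 11, 13, 15 and 17, or 8.82 ± 0.0094. All 4 of its probe sets lay above the limit. Nrp2, the binding receptor for Sema3f, stood at 8.03 in each of samples 11, 13 and 15 and at 8.12 in sample 17, and 3 of its 4 probe sets were above. Some other probe sets above the limit were wider apart, but the second set of Nrp2 was closer than its main one, at 7.80 ± 0.0096. The fourth set of Nrp1 had 7.67, 7.41, 7.69 and 7.66 in samples 11, 13, 15 and 17, and the third set of Nrp2 7.03, 7.15, 7.15 and 7.30.

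Plexins were above the limit in 6 of 10 cases, a count that includes Plxna4os1 among those under it, at 3.14 ± 0.055. Plxna2, a receptor for Sema6a and Sema5a, had levels of 8.40, 8.17, 8.34 and 8.11 in samples 11, 13, 15 and 17. Plxna4, a co-receptor for Sema3a and receptor for Sema6a, had 8.12, 8.23, 8.33 and 8.17. Plxna1, which binds Sema6d and serves class 3 semaphorins, had 7.77, 7.93, 8.01 and 7.81. By their main probe sets, Plxna1 and Plxna4 were both highest in sample 15 and lowest in sample 11, while Plxna2 was highest in sample 11. The second probe set of Plxna2 above the limit did not follow this. It had 7.99, 7.96, 8.02 and 8.05 in samples 11, 13, 15 and 17, highest in sample 17.

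Plxna3, the signalling partner of neuropilin-2 for Sema3f, was under the limit at 6.74, 6.36, 6.58 and 6.37. Plxnb1, the receptor of Sema4d, was above it with 7.87, 7.74, 7.78 and 7.69, and Plxnb2, which also binds Sema4d, at 7.27 ± 0.048. Plxnc1, the receptor of Sema7a, had a level of 8.09 ± 0.042, although 5 of its 6 probe sets were under the limit. Plxnd1, the receptor of Sema3e and best known from blood vessels, was under it with 6.55, 6.27, 6.70 and 6.28. Plxnb3, which in brain is expressed mainly by oligodendrocytes, was under it with 5.98, 6.14, 5.98 and 5.81, highest in sample 13.

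Sample 13 was also the one with the most myelin transcript. The 8 myelin markers above the limit had median deviations of -0.21, 0.45, -0.037 and -0.11 in samples 11, 13, 15 and 17. Of the guidance genes known from the myelinating lineage, Plxnb3 followed that order at its top, with 6.14 in sample 13. Sema4d and Sema5a were highest in sample 17 instead. The main probe set of Sema6a held equal values in all samples and so gives no order. Its other probe sets, also under the limit, had 4.42, 4.71, 4.73 and 4.26, and 3.48, 3.62, 3.44 and 3.19, in samples 11, 13, 15 and 17. The part of oligodendrocytes in the level of these genes was not tested. In sample 13 Ttr, a transcript of the choroid plexus, was also high, with 7.36, 9.84, 6.86 and 6.54 in the 4 samples.

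Ephrin-A ligands, which are anchored by a lipid, were above the limit in 1 of 5 cases. Efna3, made by astrocytes and acting on EphA4 of spines in mouse hippocampus, had levels of 7.72, 7.80, 7.81 and 7.80 in samples 11, 13, 15 and 17, or 7.78 ± 0.041, and its second probe set was above the limit as well (7.02 ± 0.094). Efna5, a ligand of EphA5 and EphA7, was under it with 6.68, 6.38, 6.19 and 6.40. Efna2 (5.84 ± 0.11), Efna1 (4.96 ± 0.051) and Efna4 (4.04 ± 0.26) were under it too. Efna4 varied most among these, with 4.12, 4.06, 4.30 and 3.67, lowest in sample 17.

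Efna1, Efna3 and Efna4 are direct neighbours among the protein-coding genes of the RefSeq table, and of the 3 only Efna3 lay above the limit under each alternative tried, while Efna1 passed only the limit from olfactory receptor genes and Efna4 none. Their promoters are shown because they allow the start regions of these adjacent genes to be set side by side. Each run covers 250 bases before to 50 after the start of transcription, 5' to 3' on the minus strand of GRCm38.p6, from RefSeq, at chr3:89280902-89281201 for Efna1, chr3:89322890-89323189 for Efna3 and chr3:89337979-89338278 for Efna4. Capitals mark the dinucleotide CG, of which there are 20 in Efna1, 22 in Efna3 and 11 in Efna4.
Efna1: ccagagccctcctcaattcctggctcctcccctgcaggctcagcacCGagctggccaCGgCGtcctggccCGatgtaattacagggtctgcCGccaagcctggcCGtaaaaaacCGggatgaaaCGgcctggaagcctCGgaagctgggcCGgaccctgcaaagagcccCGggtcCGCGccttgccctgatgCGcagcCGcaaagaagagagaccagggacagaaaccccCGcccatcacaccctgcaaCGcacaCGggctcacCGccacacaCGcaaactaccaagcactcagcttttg
Efna3: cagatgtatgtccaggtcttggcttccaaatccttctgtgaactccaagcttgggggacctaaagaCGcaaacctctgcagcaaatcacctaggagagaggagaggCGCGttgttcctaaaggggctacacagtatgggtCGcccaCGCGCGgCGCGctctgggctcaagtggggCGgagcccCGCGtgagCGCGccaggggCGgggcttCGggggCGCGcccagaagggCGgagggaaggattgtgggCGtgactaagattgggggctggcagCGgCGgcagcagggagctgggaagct
Efna4: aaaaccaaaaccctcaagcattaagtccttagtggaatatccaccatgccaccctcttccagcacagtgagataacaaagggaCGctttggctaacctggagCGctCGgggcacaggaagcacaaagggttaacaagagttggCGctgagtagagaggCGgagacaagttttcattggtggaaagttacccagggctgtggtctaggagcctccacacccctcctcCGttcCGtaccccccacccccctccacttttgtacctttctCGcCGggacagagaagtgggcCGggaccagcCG

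Over the guidance genes as a whole, promoter windows held more CG than the typical window of the genome's genes. The windows of 58 members were found in the RefSeq table, with a median of 21.5 CG per 300 bases, against 13 over 17492 protein-coding genes. The median was 23.5 in the 28 members above the limit and 17.5 in the 30 under it, and no such split was made over all genes. The GC box GGGCGG, searched on both strands and itself containing CG, was found in 74.1% of the members' windows and in 46.3% of all windows. The letters TATAAA, searched likewise, were found in 3.45% of the members' windows, those of Efnb2 and Slit2, and in 13.3% of all. Members ranged from 2 CG, in Sema3a and Robo4, to 56 in Epha8, and all 3 of these genes were under the limit. Ntn5 and Sema4d, with 3 CG each, were above it. These counts are matches of letters and show no binding.

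Ephrin-B ligands, which span the membrane and signal backwards through their own tails, were above the limit in 2 of 3 cases. Efnb3, which takes part in synapse formation in hippocampal neurons, had levels of 9.41, 9.50, 9.57 and 9.50 in samples 11, 13, 15 and 17, or 9.50 ± 0.062. Efnb2, a postsynaptic partner of EphA4 and EphB receptors, had 7.46, 7.43, 7.43 and 7.56. Efnb1 was just under the limit at 6.60 ± 0.092, with 6.66, 6.59, 6.48 and 6.67. In each of these genes the samples lay within a 1.15-fold span.

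EphA receptors were above the limit in 5 of 9 cases. Epha4, the receptor for Efna3 and ephrin-B ligands on dendritic spines, had levels of 9.11, 9.17, 9.28 and 9.12 in samples 11, 13, 15 and 17, or 9.17 ± 0.080, and limma placed it 2.33 ± 0.036 (SE) over the limit with an adjusted p of 3.42e-07. Epha5, a neuronal receptor of ephrin-A5, had 8.46, 8.43, 8.21 and 8.58, lowest in sample 15. Epha7, which in mouse shapes dendrites and synapses, had 7.87, 7.88, 7.87 and 7.79. Epha10, a member without kinase activity, had 7.06, 7.08, 7.08 and 7.12.

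Epha6 varied more than these, at 6.69, 7.16, 6.97 and 6.86 in samples 11, 13, 15 and 17, or 6.92 ± 0.20. It was under the limit in sample 11 and above it in the other samples, and its adjusted p against the limit was 0.414 by limma. Epha3 (5.73 ± 0.10), Epha2 (4.33 ± 0.074), Epha1 (4.28 ± 0.19) and Epha8 (4.21 ± 0.097) were under it. All 4 probe sets of Epha3 were under it, 3 of them at 3.06 or less.

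EphB receptors were above the limit in 2 of 4 measured cases. Ephb1, a receptor that guides axons at the midline and acts at hippocampal synapses, had levels of 7.39, 7.44, 7.49 and 7.37 in samples 11, 13, 15 and 17, and Ephb6, which lacks kinase activity, had 7.89 ± 0.066. Ephb3, which shares synaptic roles with EphB1, stood at the limit with 6.82, 6.82, 6.95 and 6.72. Its adjusted p by limma was 0.694, and it lay above the limit in 1 sample of 4. Ephb4, best known from veins, was under it at 5.88 ± 0.17.

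Of the Slits 2 of 3, and of the Robos 0 of 4, had a mean above the limit. Slit1, a repellent made by neurons, had levels of 8.82, 8.88, 8.88 and 8.92 in samples 11, 13, 15 and 17, or 8.88 ± 0.043, with both probe sets above the limit. Slit2, the host of Mir218-1, had 7.57, 7.56, 7.38 and 7.71, highest in sample 17 and lowest in sample 15. Slit3, the host of Mir218-2, was under the limit with 6.36, 6.28, 6.61 and 6.62.

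Robo1, a receptor for all Slits, had the widest span of the 69 genes. Its levels in samples 11, 13, 15 and 17 were 5.93, 6.08, 6.31 and 6.81, which is a 1.83-fold span and an SD of 0.38 (n = 4), and every value was under the limit. Samples 15 and 17, where it was higher, also had the larger 3' minus 5' differences of the controls, and the part of RNA quality in this order was not tested. The other two probe sets of Robo1 did not follow it. The second had 5.41, 5.53, 5.54 and 5.47 in samples 11, 13, 15 and 17, and the third 3.89, 4.005, 3.73 and 3.71.

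Robo2, the neighbour of Robo1 in the genome and the second main Slit receptor of neurons, was under every limit tried at 3.18, 3.001, 3.04 and 3.29 by its only probe set. Robo3, known from commissural axons of the hindbrain and spinal cord, was under the main limit at 4.72 ± 0.065, as was its neighbour Robo4 of endothelial cells at 5.39 ± 0.048. With 1 to 3 probe sets for each Robo gene, this count says nothing firm about the receptors. The endothelial markers of the tissue were themselves above the limit in 3 of 6 cases.

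Netrins were above the limit in 1 of 4 cases, and their receptors in 3 of 5. Ntn1, the founding attractant, was under it with 5.17, 5.17, 5.18 and 5.29 in samples 11, 13, 15 and 17. Ntn4 (5.43 ± 0.18), a laminin-related protein of basement membranes, and Ntn3 (3.55 ± 0.15) were under it. Ntn5, which lacks a domain found in other netrins, was above it with 7.05, 7.09, 7.28 and 7.07 by its only probe set, high in sample 15.

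Unc5a, a repulsive netrin receptor of neurons, had levels of 9.28, 9.36, 9.30 and 9.37 in samples 11, 13, 15 and 17, or 9.33 ± 0.042. Unc5c, a further repulsive receptor, had 8.31, 8.30, 8.32 and 8.44, highest in sample 17. Dcc, the attractive receptor, had 6.97, 7.04, 7.19 and 7.34, or 7.14 ± 0.16, and limma called it above the limit with an adjusted p of 0.0128. Dcc was lowest in sample 11 and highest in sample 17, while its second probe set, at 6.90, 6.73, 6.78 and 6.78, was highest in sample 11. Unc5b (6.41 ± 0.13) and Unc5d (6.25 ± 0.10) were under the limit.

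Known partners can be set side by side against the limit. Among 27 textbook pairs of ligand and receptor, written down after the values had been seen, both partners were above it in 10, only the ligand in 8, only the receptor in 9 and neither in 0. Pairs with both above were Sema3f and Nrp2, Sema5a and Plxna2, Sema6d and Plxna1, Sema7a and Plxnc1, Sema4d with Plxnb1 or Plxnb2, Efna3 and Epha4, Efnb2 with Epha4 or Ephb1, and Efnb3 and Ephb1. The ligand alone was above for Slit1 or Slit2 with Robo1 or Robo2, Sema3e with Plxnd1, Sema3f with Plxna3, Efnb2 with Ephb4 and Efnb3 with Ephb3, although Ephb3 could not be told apart from the limit. The receptor alone was above for Ntn1 with Dcc, Unc5a or Unc5c, Sema3a with Nrp1 or Plxna4, Sema6a with Plxna2 or Plxna4, and Efna5 with Epha5 or Epha7. The pairs of Sema3f hold only for its marked probe set. With the median over probe sets, Sema4d, Sema5a, Sema6d, Sema7a, Plxna1, Plxnc1, Efnb2, Slit2 and Unc5c were also under the limit, then 6.78. Ephb3 was above it in that setting. The same few genes recur in these pairs, the Robo genes rest on few probe sets, and no share over the array exists to read the counts against, so they describe these pairs alone.

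The other genes of the pathway were taken from lists of textbook members. These lists were chosen with earlier results of these data known, so their shares describe the listed genes alone. Of 35 further guidance ligands, receptors and co-receptors, 29 (82.9%) were above the limit and 28 were called above it, and of 43 measured intracellular effectors 31 (72.1%) were above and 30 called, against 39.0% and 37.2% of all genes. Among the effectors, the collapsin response mediators Crmp1 (9.89 ± 0.018), Dpysl2 (11.56 ± 0.019) and Dpysl3 (8.29 ± 0.033) relay semaphorin signals to microtubules. Rhoa, a GTPase that contracts the growth cone, had 9.71, 9.79, 9.32 and 9.16 in samples 11, 13, 15 and 17. Chn1, a chimaerin that switches off Rac downstream of EphA4, had 11.26, 11.17, 10.77 and 10.60, and both genes were lower in samples 15 and 17, those with the larger 3' minus 5' difference. The kinase Rock1 had 6.96, 6.79, 6.74 and 7.32. The part of RNA quality in these values was not tested.

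Of the further ligands and receptors, the adhesion receptors Dscam (7.48 ± 0.051) and Dscaml1 (7.95 ± 0.068) were above the limit and the netrin antagonist Draxin (4.43 ± 0.036) under it. Cntn2, an adhesion protein of axons and myelin, had 7.55, 8.10, 7.64 and 7.28, and Mag, a myelin inhibitor of axon growth, 8.45, 9.12, 8.64 and 8.44. Both were highest in sample 13, and Mag is itself on the list of myelin markers. The repulsive ligand Rgma had 6.94, 6.94, 7.32 and 6.87, highest in sample 15.

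**Figure D2:**
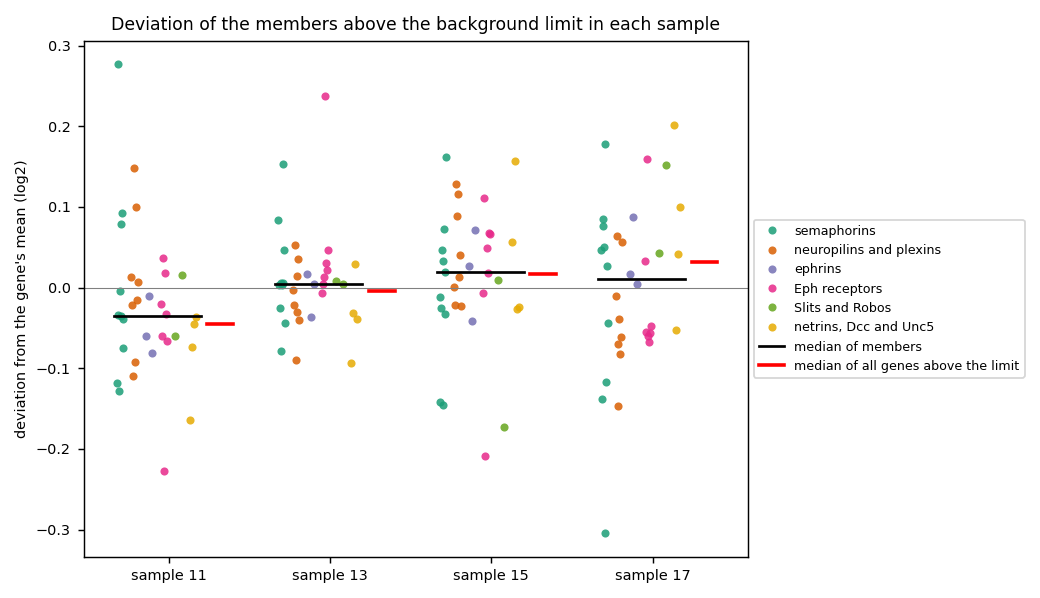
Deviation of each of the 34 guidance genes above the limit from its own mean (y axis, log2) in each sample (x axis), coloured by family. Black lines are the medians of these genes (-0.035, 0.0045, 0.019 and 0.011 in samples 11, 13, 15 and 17) and red lines those of all genes above the limit (-0.045, -0.0037, 0.017 and 0.031).

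The spread of the guidance genes between samples was close to that of the array. The median SD of the 34 above the limit was 0.072, against 0.082 for the 7102 genes of the array above it, and that of the 35 under the limit was 0.104, against 0.086 for 11092 genes. Between samples 15 and 17 the members above the limit differed by a median of 0.110, against 0.072 for all such genes, and between samples 11 and 17 by 0.086, against 0.112. None of the 34 spanned more than 0.5 on the log2 scale, which 3.82% of all genes above the limit did, while 2 of the 35 under it (5.71%), Robo1 and Efna4, did, against 5.44% of all genes under it. Equal values in at least 2 samples were found in 20.6% of these members and 28.9% of all such genes. Of the 54 probe sets of guidance genes above the limit, 0 had a spread larger than usual by limma's variance test at an adjusted p of 0.05, and 0.00% of 9995 probe sets of the array did. At an unadjusted p under 0.05 there were also 0 of 54, against 3.0% of all. The smallest unadjusted p among the members was 0.113, for a second probe set of Epha7. Since limma made no call over the whole array, a count of 0 does not show that the samples were alike.

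The samples took partly the same order in the guidance genes as over the array. Sample 11 held the lowest value in 17 of the 34 members, or 50%, against 47.9% of all genes above the limit, and sample 17 the highest value in 14 of 34, or 41.2%, against 38.9%. Sample 17 also held the lowest value in 8 of 34 members, or 23.5%, against 13.2% of all genes, and sample 13 in 3, or 8.82%, against 18.3%. The median deviation was highest in sample 15 for the members (0.019, with 0.011 in sample 17) and in sample 17 for all genes (0.031, with 0.017 in sample 15). Eph receptors had median deviations of -0.032, 0.021, 0.049 and -0.055 in samples 11, 13, 15 and 17, with 5 of 7 under their own mean in sample 17, and neuropilins and plexins were also lowest there, at -0.0041, -0.012, 0.027 and -0.050. Semaphorins were highest there, at -0.035, 0.0045, 0.0038 and 0.037, as were the netrin system genes at -0.059, -0.035, 0.016 and 0.070. These shifts are smaller than the median SD of the members and have no test. The widest family shift was the median of only Slit1 and Slit2, with -0.022, 0.0063, -0.082 and 0.098. In samples 15 and 17 it was larger than the median SD of the members (0.072), and it has no test either. Slit2 deviated by -0.17 and 0.15 in those samples, and Slit1 by 0.009 and 0.043.

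**Figure D3:**
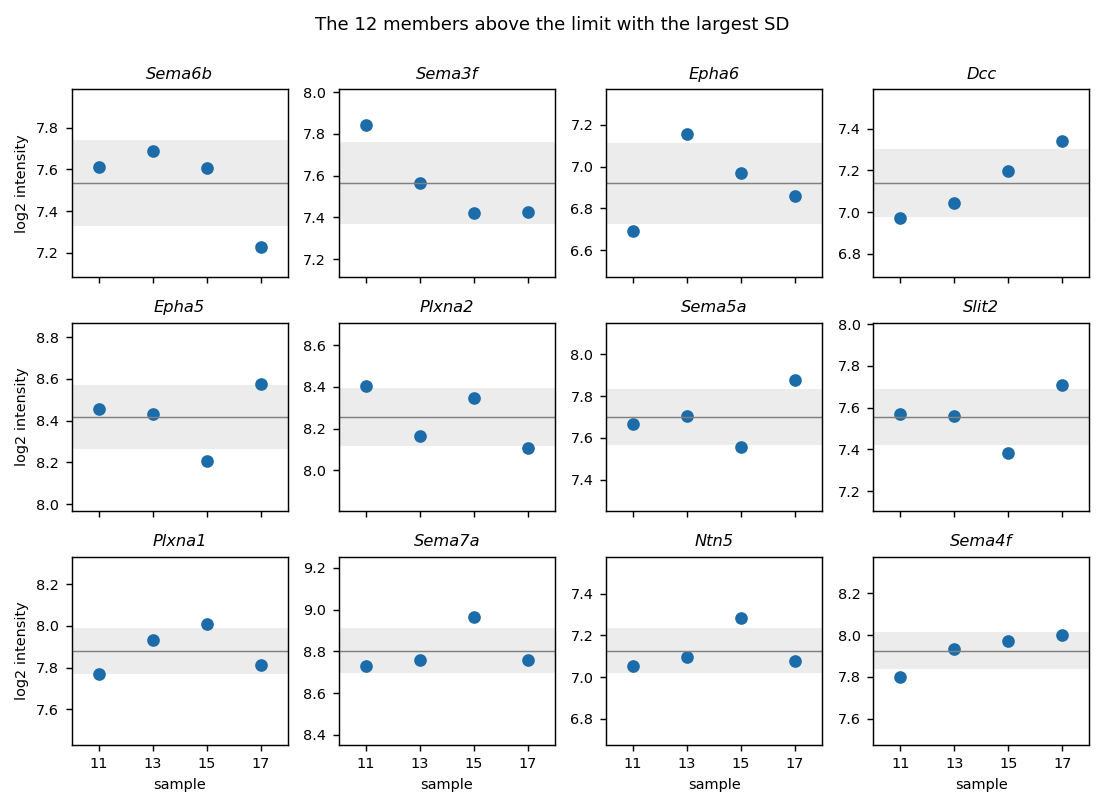
Log2 intensity (y axis) in samples 11, 13, 15 and 17 (x axis) of the 12 guidance genes above the limit with the largest SD, with the mean as a line and ± SD as a grey band. Each panel spans the same height in log2, and Sema6b is low in sample 17, Sema3f high in sample 11, and Dcc runs between 6.97 in sample 11 and 7.34 in sample 17.

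Probe sets of the same gene often disagreed on which side of the limit they fell. Of 45 guidance genes with 2 or more probe sets, all were above the limit in 6, none in 21 and only some in 18, or 13.3%, 46.7% and 40%, close to the 9.2%, 46.1% and 44.7% of 9012 such genes on the array. Efna3, Epha7, Nrp1, Plxnb1, Sema4f and Slit1 were those with all probe sets above. The main probe set of Sema6d, with a mean of 9.22, was accompanied by 3 at 4.58 or less. Which part of the transcript a probe set reads is not stated in the sources used here.

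Probe sets of the same gene also differed in which sample was highest. Of 12 members with 2 or more probe sets above the limit, Efnb2 and Sema3e had a highest sample that all these probe sets shared, equal values counted as shared. That is 16.7% of members, against 38.9% of 2045 such genes on the array, and among genes with exactly 2 it was 2 of 7 (28.6%) against 46.1%. Sema3e was highest in sample 13 by both, at 8.30 and 8.16. For Epha4, all 4 probe sets above the limit were lowest in sample 11, at 9.11, 8.64, 7.43 and 6.76, while the fifth, under the limit, was highest there at 6.59. The count is small and moves with the setting. With median centring it was 4 of 12 (33.3%), against 37% of all genes, and without sample 13 it was 1 of 11 (9.09%), against 44.9%. Without sample 15 it was 6 of 13 (46.2%), against 47.5%, and without sample 17 also 6 of 13, against 51%. The lowest sample was shared in 4 of 12 members (33.3%), against 41.9% of all genes, and in 3 of 7 (42.9%) against 49.6% where there were exactly 2 probe sets.

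**Figure D4:**
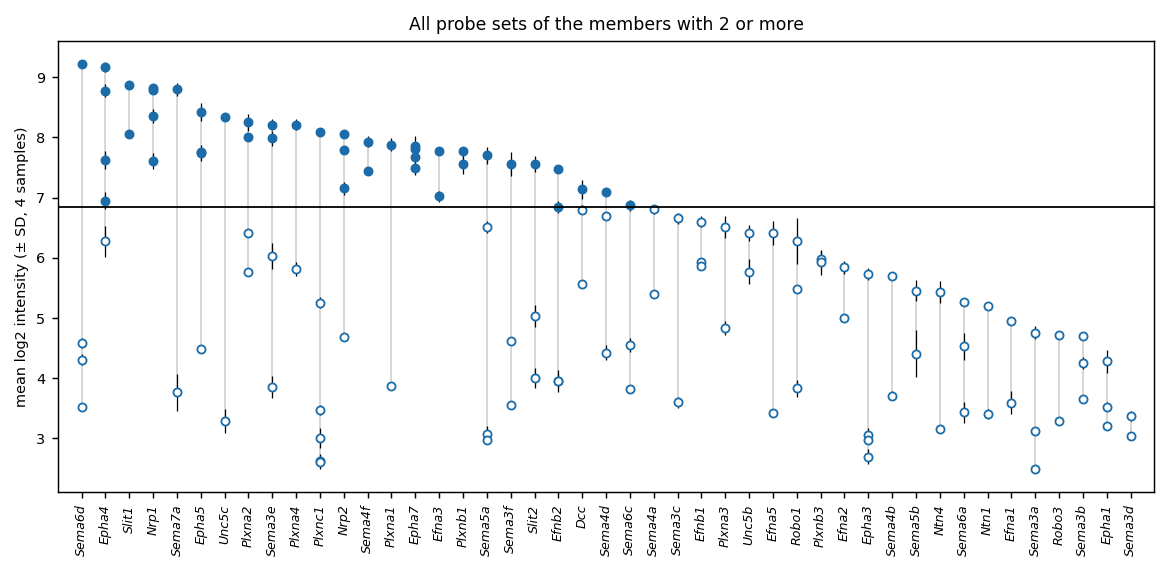
Mean log2 intensity ± SD over 4 samples (y axis) of every probe set of the 45 guidance genes with 2 or more (x axis, ordered by the probe set with the highest mean). Filled points lie above the limit of 6.84, drawn as a line, and open points under it; 18 genes have both kinds.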

How the data were processed

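Per the labels' protocols, RNA of 4 left hippocampi was isolated with a lipid tissue kit and DNase, and biotin was added by amplification. The authors deposited 1 log2 intensity per probe set and sample, computed by RMA per the submitters' processing notes, with version and settings not given in the sources used here. Of 45101 probe sets, 34958 had 1 gene symbol, 932 several and 9211 none, the last including controls. Symbols were those of the array's probe table.

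Members, lists and tests were chosen with earlier results of these data known. The background limit was the 95th percentile of 49 of 50 listed unexpected genes, of which 3 lie above it. limma 3.58.1 in R 4.3.3 (lmFit and eBayes, trend and robust options on) tested each gene's mean against this limit, taken as fixed, two-sided, and each probe set's residual variance against the prior variance (3 and 2.29 degrees of freedom), one-sided, both with Benjamini-Hochberg adjustment at 0.05 over the whole array. The tests were also run on simulated data, but the outcome is not given here and no statement rests on it. No columns were left out. Sequences and gene neighbours come from RefSeq tables of GRCm38.p6, where all 69 members were found by symbol and 58 had a promoter. For genes with several listed starts, the first listed was used. Values in every sample are given for genes with a known hippocampal role, the 12 members above the limit with the largest SD, the 4 on either side of it and the myelin-lineage genes; other single values were chosen after they were seen. Figures used Python 3.11.15 and matplotlib 3.10.9.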

Additional observations from a re-analysis of the deposited data

Results flagged for a closer look

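In 12 of the 69 guidance genes, or 17.4%, 1 sample stood apart from the other 3 by more than Dixon's 95% value for 4 samples, and the same was so for 23.9% of all 18194 genes. Chance alone gives about 5% where values are continuous, but deposited values repeat: 11 of the 12 genes, all but Unc5c, hold an equal value in at least 2 samples. Among genes without equal values the share was 1 of 45 members, or 2.22%, against 4.72% of 9420 genes of the array.

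Sample 17 stood apart most often. It was high for Epha8, at 4.359 against a median of 4.166 in the others, for Nrp2 at 8.118 against 8.033, for Ntn1 at 5.294 against 5.168, for Sema4d at 7.176 against 7.065 and for Unc5c at 8.443 against 8.307. It was low for Epha7, at 7.786 against 7.871, and for Sema4b, at 5.677 against 5.711. Other probe sets of Epha7, all above the limit, were not low in sample 17. In samples 11, 13, 15 and 17 they had 7.58, 7.70, 8.06 and 7.93, then 7.66, 7.66, 7.66 and 7.74, and 7.31, 7.55, 7.54 and 7.59. Sample 17 also had the largest 3' minus 5' difference of Gapdh, 3.79, and the part of that difference was not tested.

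Sample 13 was high for Sema4c, at 5.562 against 5.259, and for Unc5b, at 6.614 against 6.356. Both probe sets of Unc5b were highest in this sample, the second at 6.08 against 5.62 to 5.70 in the others. Sample 15 was high for Sema7a, at 8.966 against 8.759, and for Sema3b, at 4.729 against 4.703. The second probe set of Sema7a, under the limit, was lowest there, with 4.06, 3.87, 3.33 and 3.79 in samples 11, 13, 15 and 17. Sample 11 was low for Efna3, at 7.722 against 7.799.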

How the results depend on the processing

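The number of members called above the limit was 32 and stayed within 1.5 times of it under the 90th percentile limit, unmarked probe sets, renormalization, centring, a threshold of 0.01 and each sample left out. It was 20 with the 99th percentile limit, 58 with the olfactory receptor limit and 21 when a gene's probe sets were replaced by their median. Calls over all genes in these settings are not given here, so these counts describe the members alone. Means above the limit numbered 34 against 21 and 61 with those 2 limits, and calls under it 33 against 8 with the olfactory receptor limit. Over 13 alternatives 15 members stayed above and 8 under, and 46 changed sides at least once. Of these alternatives, median centring and the threshold of 0.01 could move no member. Where a single sample was left out, the limit was set again, between 6.78 and 6.93. The count of spread calls was 0 in every fit.

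Agreement of probe sets on the highest sample, 2 members, of 12, became 6 of 25 (24%, against 31.7% of all genes) with the olfactory receptor limit, 4 with median centring, 10 of 14 (71.4%, against 66.6%) without samples 15 and 17 (added after the data were seen), and 1 to 6 with single samples left out. The median deviation in sample 15, 0.019, became 0.045 with the median of probe sets, and that in sample 11, -0.035, became 4.5e-05 after quantile normalization. Of 483 recomputed levels 45 moved by more than their SD, 44 of them with the median of probe sets. The cause of these changes was not tested. A limit from the earlier session's gene list was not run. No paired analysis was possible because there is a single group.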
